A study of Mus musculus with 16 samples.

Results

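The lysosome was examined here through 33 genes that encode its hydrolases, activator proteins, membrane proteins and a pair of its regulators, chosen by name with the cathepsins left out. They are 33 of the 49671 gene rows of the deposited count table, and all 33 were among the 16372 genes that passed a filter on low counts. Total RNA came from the hippocampus of 8-month-old female mice, in 16 libraries that fall into 4 genotype groups of 4. PS19_p16KO mice carried the PS19 tau transgene and a knockout of p16, PS19 mice carried the transgene with p16 intact, p16KO mice carried the knockout without the transgene, and wildtype mice carried neither. PS19 is a tauopathy line that expresses a mutant human tau under the mouse prion promoter, and p16 is a product of Cdkn2a that restrains the cell cycle and marks senescent cells. The sources used here name neither the knockout allele nor the cells in which it acts. Whether a group's 4 samples were taken from different mice is not stated, and every p-value below reflects only how far these samples vary.

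Lysosomes are acidic organelles in which soluble hydrolases break down glycans, lipids, proteins and nucleic acids delivered by endocytosis, phagocytosis and autophagy. Most hydrolases are housekeeping enzymes made in every cell, and their inherited loss causes storage disorders, many of which damage the brain. The transcription factor TFEB raises the expression of many of these genes together when lysosomal demand is high. In brain tissue the microglia, the resident phagocytes, are rich in lysosomes and also make lysosomal membrane proteins that other brain cells make little of or none. On that textbook basis 5 members were set apart as myeloid-enriched, namely Cd68, Laptm5 and Mpeg1, which are restricted to leukocytes or nearly so, and Grn and Lgmn, which are made widely but most of all in microglia. The other 28 are called ubiquitous.

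The libraries held 18485552 to 22311322 counts on gene rows. Levels are in CPM, a count divided by that library total and scaled to a common total, without spike-in rows. Tests are edgeR's quasi-likelihood test in 1 fit of all 16 libraries, a gene is called at a Benjamini-Hochberg adjusted p under 0.05 over all genes tested, and log2 fold changes are given ± SE. The lowest count of any member in any library was 84. Cdkn2a, the targeted gene, held 2 counts over the PS19_p16KO libraries, 18 over PS19, 3 over p16KO and 8 over wildtype, too few to test here. Neuron markers summed to 6785 to 7258 CPM in PS19_p16KO, 6018 to 7012 in PS19, 6803 to 7270.2 in p16KO and 6806 to 7557 in wildtype. PS19 library 3 was the lowest of its group for 24 of the 33 members, and for all 5 myeloid-enriched ones. PS19_p16KO library 2 was the lowest of its group for 19 members, again with all 5 myeloid-enriched ones. Choroid plexus markers (Ttr, Folr1, Kl and 5 others) summed to 5878 CPM in PS19_p16KO library 3, 3442 in p16KO library 4 and 872 in wildtype library 1, against 36.6 to 203 CPM in the other 13.

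The promoters of Cd68 and Laptm5, which were among the 3 members with the highest fold changes, are shown with those of 2 ubiquitous members that carry the letters of the element through which TFEB is known to act. The windows are RefSeq promoters in GRCm38.p6, 250 bases before to 50 after the annotated start, and 30 of the 33 members had one. Cd68 lies at chr11:69666121-69666420 on the minus strand, Laptm5 at chr4:130913066-130913365, Lamp1 at chr8:13158911-13159210 and Mcoln1 at chr8:3500269-3500568, the last 3 on the plus strand. Capitals mark GAGGAA, the purine-rich core to which the myeloid factor PU.1 and other ETS proteins bind, in Cd68 and Laptm5, and GTCACGTG, an E-box with its flanking letters, in Lamp1 and Mcoln1, each on either strand.
Cd68: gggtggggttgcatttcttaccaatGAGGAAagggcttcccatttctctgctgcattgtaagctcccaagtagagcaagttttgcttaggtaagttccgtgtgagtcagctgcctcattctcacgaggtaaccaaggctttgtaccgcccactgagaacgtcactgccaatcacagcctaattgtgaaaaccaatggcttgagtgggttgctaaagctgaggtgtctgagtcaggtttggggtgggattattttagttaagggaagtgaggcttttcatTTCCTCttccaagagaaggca
Laptm5: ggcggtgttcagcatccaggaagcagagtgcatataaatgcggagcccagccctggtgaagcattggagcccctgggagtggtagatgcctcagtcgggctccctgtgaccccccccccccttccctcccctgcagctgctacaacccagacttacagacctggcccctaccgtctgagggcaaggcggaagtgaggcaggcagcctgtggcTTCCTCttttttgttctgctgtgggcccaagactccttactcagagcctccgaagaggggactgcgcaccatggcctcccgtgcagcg
Lamp1: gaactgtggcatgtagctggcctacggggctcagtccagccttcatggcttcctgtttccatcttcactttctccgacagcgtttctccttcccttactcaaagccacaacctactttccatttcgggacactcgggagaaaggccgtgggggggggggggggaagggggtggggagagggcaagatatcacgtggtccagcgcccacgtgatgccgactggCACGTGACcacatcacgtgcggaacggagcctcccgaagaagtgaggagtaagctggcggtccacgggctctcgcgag
Mcoln1: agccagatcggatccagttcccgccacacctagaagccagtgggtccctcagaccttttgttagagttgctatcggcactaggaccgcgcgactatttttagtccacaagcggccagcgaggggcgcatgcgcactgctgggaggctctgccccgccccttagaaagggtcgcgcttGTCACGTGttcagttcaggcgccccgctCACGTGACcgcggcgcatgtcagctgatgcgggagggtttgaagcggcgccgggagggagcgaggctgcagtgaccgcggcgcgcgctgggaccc

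Over all promoter windows, GTCACGTG was found in 2.25% and GAGGAA in 28.3%. Counted by gene, as the members are, the shares were 2.55% and 31.3%. The letters GTCACGTG were present in 6 of the 30 members with a window, Arsa, Glb1, Lamp1, Lgmn, Mcoln1 and Naglu, of which Lgmn alone is myeloid-enriched. In all 6 they lay within 75 bases upstream of the RefSeq start, and Mcoln1 held them at both 73 and 45 bases upstream. The gene positions given below are from GENCODE, whose starts can differ from those of RefSeq, as for Mcoln1 and Laptm5. The shorter and commoner GAGGAA was present in 15 of 30. These were 3 of the 5 myeloid-enriched members, Cd68, Laptm5 and Grn, and 12 of the 25 ubiquitous members with a window. The windows of Mpeg1 and Lgmn did not hold the letters. A longer form of GAGGAA with 10 letters, found in 0.581% of all windows and 0.64% of genes, was present in Laptm5 and Gusb. CACGTG, the E-box that GTCACGTG contains, was found in 7.15% of all windows and 8.09% of genes, and in 7 members, Gaa in addition to the 6. A match describes the letters of these windows only and does not show that a factor binds there.

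To see what the tau transgene did with p16 intact, PS19 was compared with wildtype. All 5 myeloid-enriched members rose, with a median log2 fold change of 1.12, and in each the 4 PS19 libraries lay above the 4 wildtype libraries. In edgeR's test 1.56% of all genes were called higher in this comparison and 0.055% lower. When p16 was also missing, in PS19_p16KO against PS19, the levels of Cd68, Laptm5, Mpeg1 and Grn fell, and that of Lgmn did not pass the test. There 0.776% of all genes were called lower and 0.0489% higher. The comparisons share the PS19 libraries, so a PS19 level that is high by chance enters both with opposite sign. In bulk tissue a change in the number of cells and a change in RNA per cell cannot be told apart.

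Cd68 (ENSMUSG00000018774, chromosome 11, 69664213 to 69666153, minus strand) encodes macrosialin, a heavily glycosylated lysosomal membrane protein of macrophages related to the LAMP proteins. It had 5.40, 5.03, 6.33 and 5.25 CPM in the PS19_p16KO libraries, 21.4, 17.3, 7.59 and 13.2 CPM in PS19, 4.59, 5.75, 6.31 and 4.81 CPM in p16KO and 4.87, 6.27, 4.44 and 4.46 CPM in wildtype. Every PS19 library, library 3 included, was above every library of the other groups. The difference was 2.95-fold in PS19 against wildtype (log2 1.56 ± 0.23, edgeR adjusted p = 0.00132), and PS19_p16KO stood at 0.372 of the PS19 level (log2 -1.43 ± 0.23, edgeR adjusted p = 0.00693). Laptm5 (ENSMUSG00000028581, chromosome 4, 130913125 to 130936141, plus strand) encodes a transmembrane protein of leukocyte lysosomes that takes part in receptor turnover. Its level was 41.2, 32.2, 38.8 and 37.98 CPM in the PS19_p16KO libraries, 92.3, 79.3, 47.03 and 64.2 CPM in PS19, 39.4, 38.5, 36.2 and 36.7 CPM in p16KO and 33.1, 32.9, 30.5 and 32.9 CPM in wildtype. PS19 again lay above all other libraries, and p16KO lay above wildtype without overlap. Laptm5 rose 2.18-fold in PS19 (log2 1.12 ± 0.15, edgeR adjusted p = 0.0011) and stood at 0.535 of that level in PS19_p16KO (log2 -0.90 ± 0.14, edgeR adjusted p = 0.00963).

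Mpeg1 (ENSMUSG00000046805, chromosome 19, 12460779 to 12465283, plus strand) encodes perforin-2, a pore-forming protein of the macrophage phagosome. It had 35.4, 26.1, 37.2 and 26.99 CPM in the PS19_p16KO libraries, 119, 105, 43.9 and 75.2 CPM in PS19, 29.5, 27.4, 27.4 and 28.01 CPM in p16KO and 24.1, 24.6, 23.9 and 15.2 CPM in wildtype. Wildtype library 4 was well below the other wildtype libraries, and PS19 library 3 lay closer to the highest PS19_p16KO library than to PS19 library 4. Mpeg1 had the highest fold change of the 33 members, 3.89-fold in PS19 against wildtype (log2 1.96 ± 0.26, edgeR adjusted p = 0.00221), and in PS19_p16KO it stood at 0.368 of the PS19 level (log2 -1.44 ± 0.26, edgeR adjusted p = 0.0234). Grn (ENSMUSG00000034708, chromosome 11, 102430315 to 102437048, plus strand) encodes progranulin, a secreted and lysosomal protein whose loss causes neurodegeneration. Its level was 67.4, 53.8, 66.3 and 57.2 CPM in the PS19_p16KO libraries, 128, 106, 70.01 and 93.98 CPM in PS19, 60.8, 59.7, 58.00 and 58.4 CPM in p16KO and 56.7, 58.9, 60.05 and 57.4 CPM in wildtype. The p16KO and wildtype libraries were all within 56.7 to 60.8 CPM, while PS19 spread from library 3 at the low end to library 1 at the high end. Grn rose 1.70-fold in PS19 (log2 0.77 ± 0.13, edgeR adjusted p = 0.00461) and stood at 0.618 of that level in PS19_p16KO (log2 -0.69 ± 0.13, edgeR adjusted p = 0.0175). Lgmn (ENSMUSG00000021190, chromosome 12, 102394084 to 102439813, minus strand) encodes legumain, a lysosomal protease that cuts after asparagine. It had 104, 85.1, 122 and 98.7 CPM in the PS19_p16KO libraries, 148, 126, 101 and 112 CPM in PS19, 95.1, 90.9, 91.8 and 96.1 CPM in p16KO and 100.5, 87.5, 76.2 and 83.2 CPM in wildtype. PS19 library 3 and wildtype library 1 nearly met, and PS19_p16KO overlapped PS19. Lgmn rose 1.39-fold in PS19 (log2 0.48 ± 0.11, edgeR adjusted p = 0.0411), and its log2 difference in PS19_p16KO against PS19 was -0.24 ± 0.11 (edgeR adjusted p = 0.576).

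**Figure D1:**
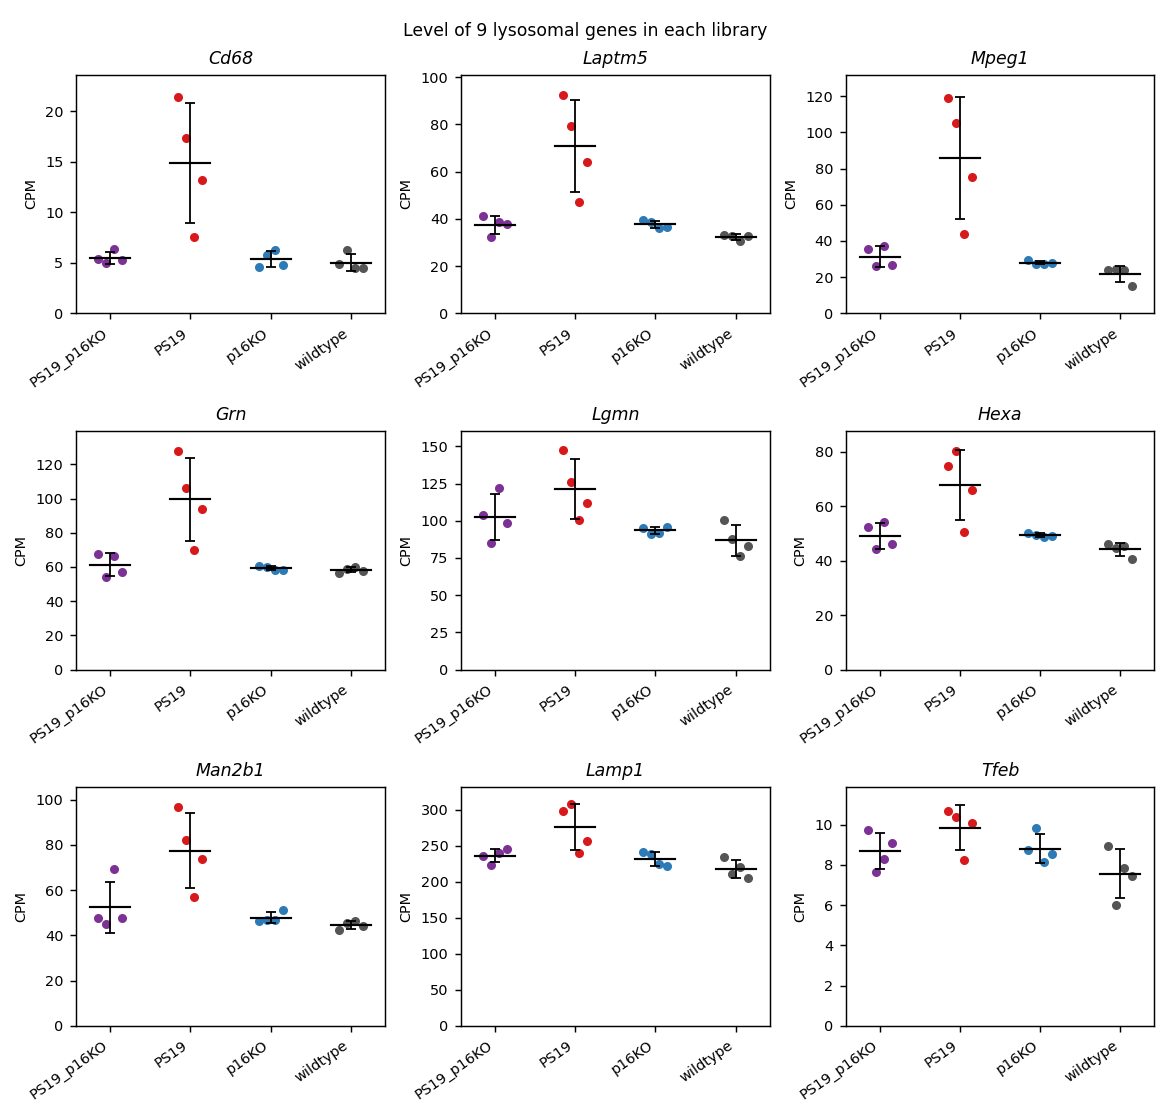
CPM (vertical axis, from 0) of 9 lysosomal genes in the 16 libraries, one point per library, with horizontal lines at the group mean and bars of ± 1 SD (n = 4). The PS19 libraries stand above the other groups in Cd68, Laptm5, Mpeg1 and Grn, with the lowest PS19 point, library 3, at 7.59 CPM for Cd68 and 43.9 CPM for Mpeg1.

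Most markers of microglia outside the lysosome moved in the same direction. The 14 listed markers, Csf1r, Cx3cr1 and P2ry12 among them, summed to 346 to 387 CPM in PS19_p16KO, 398 to 736 in PS19, 322 to 388 in p16KO and 302 to 339 in wildtype. Of these markers 13 had positive values in PS19 against wildtype and 1 a negative value of log2 -0.01. The 9 called higher there did not include P2ry12. In PS19_p16KO against PS19 12 were negative, of which 4 were called lower, and 2 were positive, at up to log2 0.19. Astrocyte markers, which include Gfap, summed to 4703 to 5553 CPM in PS19_p16KO, 6079.7 to 8750.1 in PS19, 4886 to 5764 in p16KO and 5372 to 5545 in wildtype. In PS19 against wildtype all 8 were positive, with 1 called by edgeR (8 at an unadjusted p under 0.05, 2 by DESeq2, 1 by limma-voom). In PS19_p16KO against PS19 all 8 were negative, with 2 called by edgeR (7 at an unadjusted p under 0.05, 3 by DESeq2, 1 by limma-voom). The part of these markers in the lysosomal differences was not tested. Markers of border macrophages, T cells and neutrophils were low, at no more than 32.3, 3.64 and 2.21 CPM summed over the list in any library, and Ly6g had 0 counts in all 16. Only 6 of the 8 border macrophage markers and 2 of the 8 T cell markers were tested. In PS19 against wildtype 0 of these 6 were called by edgeR (0 at an unadjusted p under 0.05, 0 by DESeq2, 0 by limma-voom). Of the 2 T cell markers 0 were called by edgeR (0 at an unadjusted p under 0.05, 0 by DESeq2, 0 by limma-voom).

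Of the ubiquitous membrane proteins, Lamp1 and Scarb2 rose in PS19 against wildtype, and Lamp2, Cd63, Laptm4a and Tmem106b did not pass the test. Lamp1 (ENSMUSG00000031447, chromosome 8, 13159161 to 13175338, plus strand), an abundant glycoprotein that lines the lysosomal membrane, had 235, 224, 241 and 246 CPM in the PS19_p16KO libraries, 298, 308, 241 and 258 CPM in PS19, 241, 239, 224 and 221 CPM in p16KO and 235, 211, 221 and 206 CPM in wildtype. PS19 lay above wildtype without overlap, with PS19 library 3 close above wildtype library 1. Lamp1 rose 1.26-fold (log2 0.33 ± 0.06, edgeR adjusted p = 0.00693), and its log2 difference in PS19_p16KO against PS19 was -0.21 ± 0.06 (edgeR adjusted p = 0.153). Scarb2 (ENSMUSG00000029426, chromosome 5, 92441314 to 92506833, minus strand), the receptor that carries glucocerebrosidase to the lysosome, had 163, 165, 149 and 157 CPM in the PS19_p16KO libraries, 198, 208, 169 and 173 CPM in PS19, 160.2, 163, 159.6 and 156 CPM in p16KO and 169, 156, 150.0 and 152 CPM in wildtype. Its PS19 libraries did not overlap those of PS19_p16KO, and only just cleared wildtype library 1. Scarb2 rose 1.19-fold (log2 0.25 ± 0.06, edgeR adjusted p = 0.0307), with a log2 difference of -0.23 ± 0.06 (edgeR adjusted p = 0.0788) in PS19_p16KO against PS19.

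Cd68 and Laptm5 have ubiquitous relatives among the members, and the relatives differed less between PS19 and wildtype. Lamp1, a relative of Cd68, was called higher in PS19, at log2 0.33 ± 0.06 where Cd68 had 1.56 ± 0.23. Lamp2, a LAMP protein needed for autophagy, averaged 102 ± 15.6 CPM in PS19 and 79.4 ± 7.18 CPM in wildtype (SD, n = 4 each), with a log2 difference of 0.35 ± 0.16 (edgeR adjusted p = 0.486). Laptm4a, a broadly made relative of Laptm5, averaged 259.7 ± 20.1 CPM in PS19 and 246 ± 13.7 CPM in wildtype, with a log2 difference of 0.07 ± 0.06 (edgeR adjusted p = 0.817). The difference between relatives was not itself tested. Cd63, a tetraspanin of late endosomes, had 77.97, 65.9, 136 and 82.98 CPM in the PS19_p16KO libraries, 149.6, 145, 80.9 and 114 CPM in PS19, 86.3, 79.7, 72.9 and 105 CPM in p16KO and 87.1, 64.6, 81.7 and 70.2 CPM in wildtype. Its PS19 libraries ranged from the wildtype level in library 3 to its highest level in library 1, and the log2 difference of 0.68 ± 0.23 (edgeR adjusted p = 0.262) carried a large error. Tmem106b, a lysosomal membrane protein linked to frontotemporal dementia risk, was the only member with a negative value in PS19 against wildtype, at log2 -0.02 ± 0.05 (edgeR adjusted p = 0.956).

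Among the 8 genes of sphingolipid and ganglioside breakdown, Hexa and Gm2a rose in PS19. Hexa (ENSMUSG00000025232, chromosome 9, 59539540 to 59565109, plus strand) encodes the alpha subunit of beta-hexosaminidase, which removes a terminal sugar from GM2 ganglioside and is lost in Tay-Sachs disease. It had 52.3, 44.3, 54.2 and 46.1 CPM in the PS19_p16KO libraries, 74.7, 80.2, 50.6 and 65.9 CPM in PS19, 50.3, 49.5, 48.6 and 49.1 CPM in p16KO and 46.00, 44.5, 45.6 and 40.7 CPM in wildtype. All PS19 libraries were above wildtype, and p16KO was above wildtype too, but PS19_p16KO libraries 1 and 3 lay above PS19 library 3. Hexa rose 1.53-fold in PS19 (log2 0.61 ± 0.10, edgeR adjusted p = 0.00221) and stood at 0.73 of the PS19 level in PS19_p16KO (log2 -0.45 ± 0.10, edgeR adjusted p = 0.0324), the only ubiquitous member edgeR called there. That call was lost in 12 of 25 alternatives, among them limma-voom, no filter and 7 of the 16 fits without 1 library, with adjusted p-values of up to 0.296. DESeq2 called Hexa, Man2b1 and Scarb2. Gm2a (ENSMUSG00000000594, chromosome 11, 55098115 to 55113029, plus strand) encodes the activator that presents GM2 to that enzyme. It had 52.3, 57.2, 65.2 and 57.02 CPM in the PS19_p16KO libraries, 72.02, 71.9, 56.5 and 58.4 CPM in PS19, 58.1, 53.8, 56.2 and 61.2 CPM in p16KO and 54.6, 49.97, 51.3 and 51.6 CPM in wildtype. PS19 libraries 1 and 2 stood well above wildtype, while libraries 3 and 4 were close to the highest wildtype library. Gm2a rose 1.24-fold (log2 0.31 ± 0.08, edgeR adjusted p = 0.0353), and its log2 difference in PS19_p16KO against PS19 was -0.15 ± 0.08 (edgeR adjusted p = 0.605).

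The other 6 genes of this group were not called in either comparison. Psap, the precursor of the saposin activators, was the most abundant member, with 1855 ± 74.2 CPM in PS19 and 1697 ± 39.8 CPM in wildtype (SD, n = 4 each). Its PS19 libraries all exceeded the wildtype ones, by log2 0.12 ± 0.06 (edgeR adjusted p = 0.557). Asah1, the acid ceramidase, had log2 0.27 ± 0.08 (edgeR adjusted p = 0.117) and Arsa, the arylsulfatase lost in metachromatic leukodystrophy, 0.16 ± 0.07 (edgeR adjusted p = 0.426). Glb1, the beta-galactosidase whose activity is used as a senescence stain, averaged 21.9 ± 0.767 CPM in PS19 and 20.6 ± 1.37 CPM in wildtype (log2 0.08 ± 0.10, edgeR adjusted p = 0.889). In the same comparison Neu1, the lysosomal sialidase, had log2 0.01 ± 0.07 and Smpd1, the acid sphingomyelinase, 0.01 ± 0.07.

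Of 7 enzymes of glycan and glycosaminoglycan breakdown, Man2b1 and Gusb rose in PS19. Man2b1 (ENSMUSG00000005142, chromosome 8, 85083270 to 85098282, plus strand) encodes the lysosomal alpha-mannosidase. It had 47.4, 45.1, 69.3 and 47.8 CPM in the PS19_p16KO libraries, 96.8, 82.1, 57.1 and 73.6 CPM in PS19, 46.4, 46.96, 46.8 and 51.3 CPM in p16KO and 42.5, 45.2, 46.2 and 44.1 CPM in wildtype. The PS19 libraries were all above wildtype, and PS19_p16KO library 3, one of the libraries rich in choroid plexus RNA, was far above the other PS19_p16KO libraries. Man2b1 had the highest fold change of the ubiquitous members, 1.73-fold (log2 0.79 ± 0.14, edgeR adjusted p = 0.00767). In PS19_p16KO against PS19 its log2 difference was -0.56 ± 0.14 (edgeR adjusted p = 0.0892), which passed by DESeq2 and by limma-voom, and in edgeR without PS19_p16KO library 3, at log2 -0.71 (edgeR adjusted p = 0.0175). Gusb (ENSMUSG00000025534, chromosome 5, 129989011 to 130003049, minus strand) encodes beta-glucuronidase. It had 15.6, 12.95, 18.2 and 15.6 CPM in the PS19_p16KO libraries, 25.6, 21.7, 15.9 and 18.8 CPM in PS19, 14.1, 14.8, 13.9 and 13.5 CPM in p16KO and 14.8, 12.95, 14.5 and 13.7 CPM in wildtype. PS19 library 3 lay between the highest wildtype library and the highest PS19_p16KO library. Gusb rose 1.46-fold in PS19 (log2 0.55 ± 0.11, edgeR adjusted p = 0.0137), with a log2 difference of -0.39 ± 0.11 (edgeR adjusted p = 0.149) in PS19_p16KO against PS19.

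The other 5 enzymes of glycan breakdown did not pass in either comparison. Naglu, which acts on heparan sulfate, had log2 0.45 ± 0.18 (edgeR adjusted p = 0.378) in PS19 against wildtype and Galns, which acts on keratan sulfate, 0.23 ± 0.13 (edgeR adjusted p = 0.643). Gaa, the acid alpha-glucosidase lost in Pompe disease, averaged 489.8 ± 19.1 CPM in PS19 and 484 ± 27.7 CPM in wildtype (SD, n = 4 each), a log2 difference of 0.01 ± 0.05. Arsb, another sulfatase, and Manba, the beta-mannosidase, had log2 0.09 ± 0.05 and 0.09 ± 0.12.

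The 3 genes of cholesterol handling had positive values and 0 calls by edgeR in PS19 against wildtype, where Npc1 and Npc2 reached an unadjusted p under 0.05. DESeq2 called Npc2 and limma-voom called 0. Npc2, the soluble protein that passes cholesterol to the membrane protein Npc1, had 58.96, 50.9, 81.97 and 60.5 CPM in the PS19_p16KO libraries, 96.7, 91.9, 59.9 and 68.3 CPM in PS19, 61.1, 51.6, 53.4 and 71.2 CPM in p16KO and 59.6, 50.1, 52.1 and 48.5 CPM in wildtype. Its PS19 libraries cleared the highest wildtype library by under 1 CPM at the closest, and the log2 difference was 0.59 ± 0.16 (edgeR adjusted p = 0.122). Npc1 had log2 0.19 ± 0.07 (edgeR adjusted p = 0.211) and Lipa, the acid lipase that frees cholesterol from its esters, 0.21 ± 0.15 (edgeR adjusted p = 0.757). Tpp1 and Ppt1, a peptidase and a thioesterase whose loss causes neuronal ceroid lipofuscinosis, had log2 0.20 ± 0.08 (edgeR adjusted p = 0.395) and 0.04 ± 0.06 (edgeR adjusted p = 0.917).

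Neither regulator was called. Tfeb (ENSMUSG00000023990, chromosome 17, 47737030 to 47792419, plus strand) had 9.72, 7.66, 8.31 and 9.09 CPM in the PS19_p16KO libraries, 10.7, 10.4, 8.23 and 10.1 CPM in PS19, 8.74, 9.81, 8.15 and 8.52 CPM in p16KO and 8.96, 6.01, 7.83 and 7.43 CPM in wildtype. PS19 libraries 1, 2 and 4 were above all wildtype libraries and library 3 was within them, and the log2 difference was 0.38 ± 0.13 (edgeR adjusted p = 0.197) in PS19 against wildtype and -0.17 ± 0.12 (edgeR adjusted p = 0.77) in PS19_p16KO against PS19. Mcoln1 (ENSMUSG00000004567, chromosome 8, 3500457 to 3515232, plus strand), the lysosomal calcium channel that acts upstream of TFEB and whose promoter holds GTCACGTG at 2 places, had 54.2, 51.3, 52.9 and 53.01 CPM in the PS19_p16KO libraries, 50.6, 51.01, 53.6 and 48.9 CPM in PS19, 48.1, 53.6, 48.2 and 48.4 CPM in p16KO and 52.8, 50.3, 50.3 and 48.5 CPM in wildtype. All 16 libraries lay within 48.1 to 54.2 CPM, and the log2 differences were 0.01 ± 0.05 and 0.06 ± 0.05 in the same comparisons. Of the 6 members with GTCACGTG in the promoter window, 2 were called higher in PS19 than in wildtype, Lamp1 and Lgmn. Their median log2 fold change over the 6 was 0.25, against 0.25 over all 33. Called higher there were 11 of the 33 members and 1.56% of all genes.

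**Figure D2:**
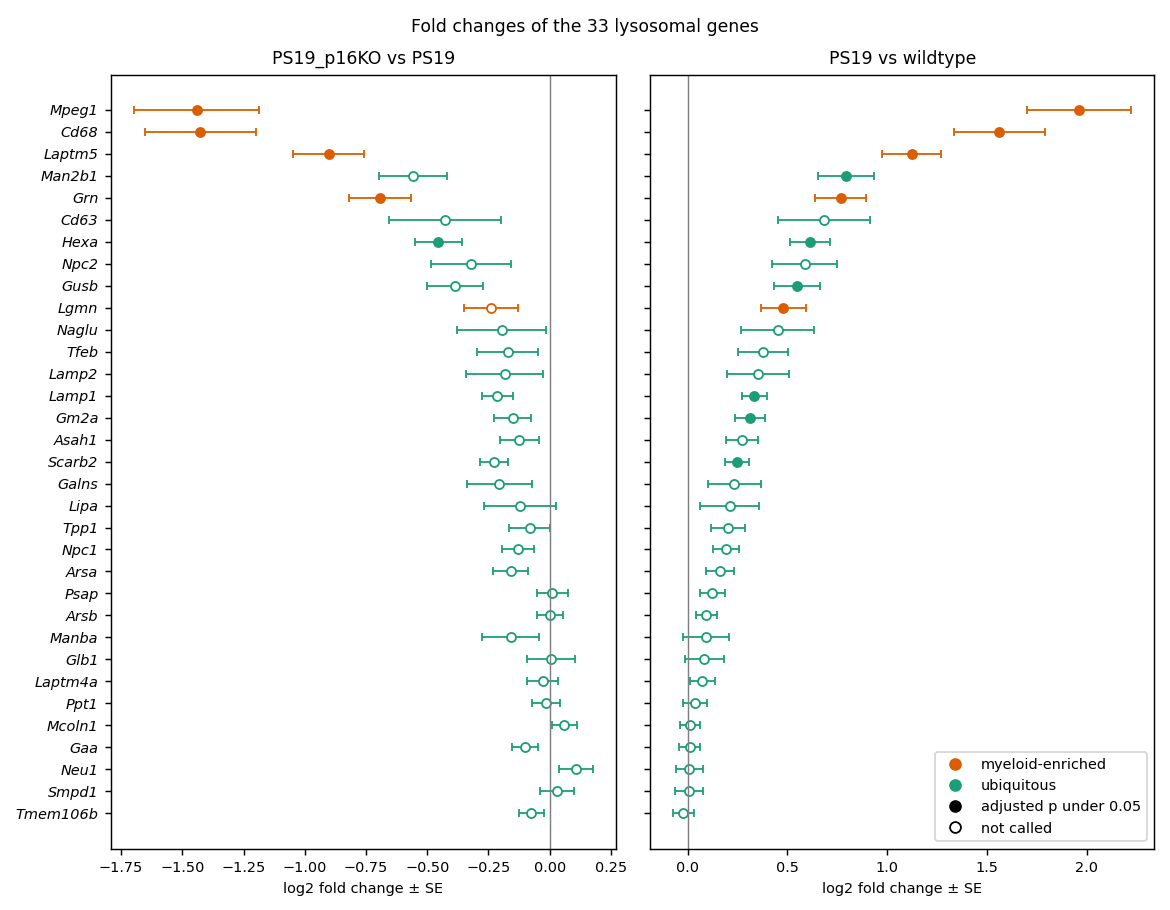
Log2 fold change ± SE (horizontal axes) of the 33 genes in PS19_p16KO against PS19 (left) and PS19 against wildtype (right), in the order of the right panel, with myeloid-enriched genes in orange, ubiquitous ones in green and filled points for adjusted p under 0.05. Mpeg1, Cd68 and Laptm5 head both panels, and the ubiquitous genes lie between -0.02 and 0.79 on the right.

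By class, the myeloid-enriched members were called higher in PS19 in 5 of 5, with log2 fold changes of 0.48 to 1.96. Of all genes, 1.56% were called higher there by edgeR. The ubiquitous members were called in 6 of 28, Hexa, Gm2a, Man2b1, Gusb, Lamp1 and Scarb2, with a median of 0.21, and 27 of 28 lay above 0. In edgeR's test 20 of the 33 members had an unadjusted p under 0.05, where 9.57% of all genes had. Of the members not called, these were Arsa, Asah1, Cd63, Lamp2, Naglu, Npc1, Npc2, Tfeb and Tpp1. The median over all 16372 genes tested was -0.01, and 48.3% were positive. In PS19_p16KO against PS19 the medians were -0.90 and -0.14, with 4 of 5 and 1 of 28 called lower, beside a median of 0.0018 over all genes. There edgeR called 0.776% of all genes lower. At an unadjusted p under 0.05 were 11 members and 8.59% of all genes. The 27 ubiquitous members not called there had log2 values of -0.56 to 0.11. Of the 33 members 14 had PS19 libraries wholly above wildtype, where 3.52% of all genes had, and 0 members had them wholly below, where 1.47% of all genes had. Between PS19_p16KO and PS19 5 members did not overlap, Cd68, Laptm5, Mpeg1, Grn and Scarb2, all lower in PS19_p16KO, where 2.63% of all genes were lower and 1.44% higher without overlap. The classes were compared by these counts and medians only, since the members were chosen by name and their difference carries no test.

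The library names end in a number whose first digit is shared across groups, and PS19 and wildtype each have 1 library for each of the 4 digits. Within digits 3, 4, 5 and 6 the median log2 difference of PS19 minus wildtype was 1.27, 0.63, 0.96 and 1.48 in the myeloid-enriched members and 0.32, 0.11, 0.18 and 0.19 in the ubiquitous ones. PS19_p16KO minus PS19 gave -0.94, -0.54, -0.73 and -1.28 in the myeloid-enriched members. In the ubiquitous members it gave -0.27, -0.09, 0.09 and -0.26, so the sign turned within digit 5, which holds PS19_p16KO library 3. The counts of called members also rest on the libraries. Without wildtype library 2, PS19 library 1 or PS19 library 2 the members called higher in PS19 were the same 7, Cd68, Laptm5, Mpeg1, Grn, Hexa, Man2b1 and Lamp1, while Lgmn, Gusb, Scarb2 and Gm2a were lost. Over all genes 141, 120 and 125 were called higher in these fits, where the main fit called 255. Without PS19 library 3 Asah1 and Npc2 joined the 11, where 423 of all genes were called higher. The member count was 0 when only PS19 and wildtype were fitted, where the lowest edgeR adjusted p among the members was 0.0526. That fit called 68 of 15833 genes higher. For PS19_p16KO against PS19 Cd68 alone was called without PS19 library 2, and without PS19 library 3 the 5 were joined by Gusb, Lamp1, Man2b1 and Scarb2. Over all genes 27 and 320 were called lower in these fits, where the main fit called 127.

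**Figure D3:**
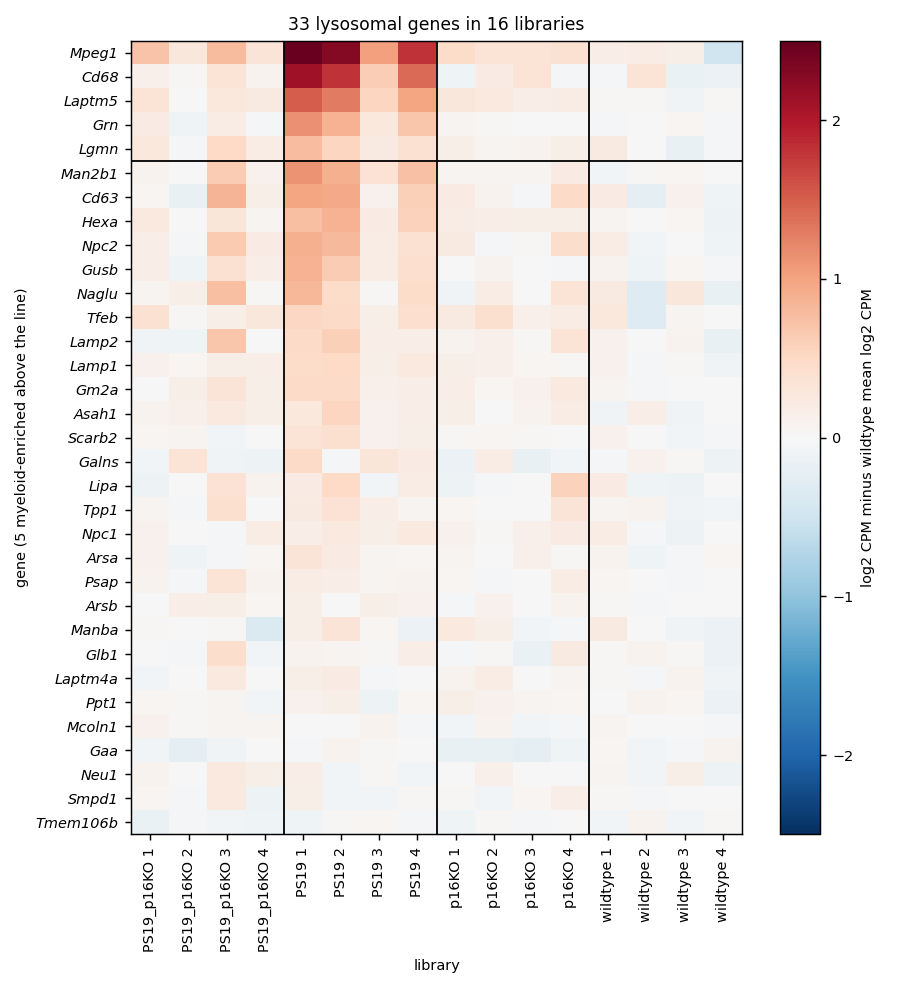
Log2 CPM minus the wildtype mean (colour) for the 33 genes (rows, the 5 myeloid-enriched above the line) in the 16 libraries (columns). PS19 libraries 1 and 2 are the darkest, PS19 library 3 is the palest of its group, and PS19_p16KO library 3 was the highest of its group in 21 of the 33 genes.

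The transgene was next examined without p16, in PS19_p16KO against p16KO, whose libraries are all different from those of PS19 and wildtype. In edgeR's test 0 of the 33 members were called, and 0 had an unadjusted p under 0.05. DESeq2 and limma-voom also called 0. In all, 0.0183% of genes were called higher and 0% lower there. No member had libraries of these groups that did not overlap, where 1.18% of all genes were higher and 1.47% lower without overlap. The myeloid-enriched members had a median log2 difference of 0.06, where they had 1.12 in PS19 against wildtype, and the ubiquitous members 0.03, where they had 0.21. Cd68 averaged 5.50 ± 0.57 CPM in PS19_p16KO and 5.37 ± 0.805 CPM in p16KO (SD, n = 4 each), with log2 0.05 ± 0.23. Grn averaged 61.2 ± 6.69 CPM and 59.2 ± 1.28 CPM in the same groups, with log2 0.06 ± 0.13. Mpeg1 had log2 0.17 ± 0.26.

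Whether the transgene effect differed by p16 genotype was tested as the interaction, the log2 difference of PS19_p16KO and p16KO minus that of PS19 and wildtype. All 5 myeloid-enriched members were negative, with a median of -1.12, and the ubiquitous median was -0.22. Laptm5 had -1.12 ± 0.21 (edgeR adjusted p = 0.0751), Cd68 -1.52 ± 0.32 (edgeR adjusted p = 0.113), Mpeg1 -1.79 ± 0.37 (edgeR adjusted p = 0.131), Hexa -0.61 ± 0.14 (edgeR adjusted p = 0.131) and Grn -0.71 ± 0.18 (edgeR adjusted p = 0.213). Of the 33 members 0 passed in edgeR's test, and of all genes 0.00611% were called lower and 0% higher. An unadjusted p under 0.05 was reached by 13 members and by 5.44% of all genes. DESeq2 called 5 members, Cd68, Grn, Hexa, Laptm5 and Mpeg1, all lower, where it called 0.531% of all genes lower and 0.00611% higher, and limma-voom called 0. Without PS19 library 3 edgeR called 7 members lower, these 5 with Lamp1 and Man2b1, where it called 0.947% of all genes lower and 0.0181% higher.

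The knockout of p16 without the transgene, p16KO against wildtype, gave 0 called members in edgeR's test, where Gaa alone had an unadjusted p under 0.05, and 0 by DESeq2 and by limma-voom. Over all genes 0% were called in either direction. Laptm5, Mpeg1, Hexa and Man2b1 had p16KO libraries wholly above wildtype, which 1.75% of all genes had. Gaa had p16KO libraries wholly below wildtype, which 1.24% of all genes had. Gaa averaged 429 ± 16.6 CPM in p16KO and 484 ± 27.7 CPM in wildtype (SD, n = 4 each), with a log2 difference of -0.18 ± 0.05 (edgeR adjusted p = 0.729). Mpeg1 had the highest value, log2 0.35 ± 0.27 (edgeR adjusted p = 0.999) beside a wildtype library 4 at 15.2 CPM. The medians were 0.10 in the myeloid-enriched and 0.08 in the ubiquitous members. Positive values were held by 29 of the 33 members, where 49.7% of all genes were positive. All 14 microglia markers were positive there too, with a median of 0.18. Of these markers edgeR called 0 (1 at an unadjusted p under 0.05, 0 by DESeq2, 0 by limma-voom). The p16KO libraries also enter PS19_p16KO against p16KO and the interaction.

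Because most microglia markers moved with the members, each member was also set against the 14 markers within its library. The value was its log2 CPM minus the mean log2 CPM of these markers. That mean was 4.56 ± 0.34 in PS19 and 3.87 ± 0.06 in wildtype (SD, n = 4 each). Relative to the markers, Mpeg1 lay at 1.26 to 2.05 in PS19 and 0.13 to 0.73 in wildtype, and Laptm5 at 1.36 to 1.64 in PS19 and 1.09 to 1.24 in wildtype. These were the 2 members whose PS19 libraries stayed wholly above wildtype on this scale, where 0.476% of all genes did. Cd68 lay at -1.27 to -0.55 in PS19 and -1.69 to -1.25 in wildtype, where PS19 library 3 fell just below wildtype library 2. Grn, at 1.94 to 2.14 in PS19 and 1.89 to 2.06 in wildtype, and Hexa, at 1.25 to 1.66 and 1.55 to 1.67, overlapped. In 20 of the 33 members, Lamp1 and Psap among them, the PS19 libraries were wholly below wildtype on this scale, where 68% of all genes were, since the marker mean itself was higher in PS19.

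**Figure D4:**
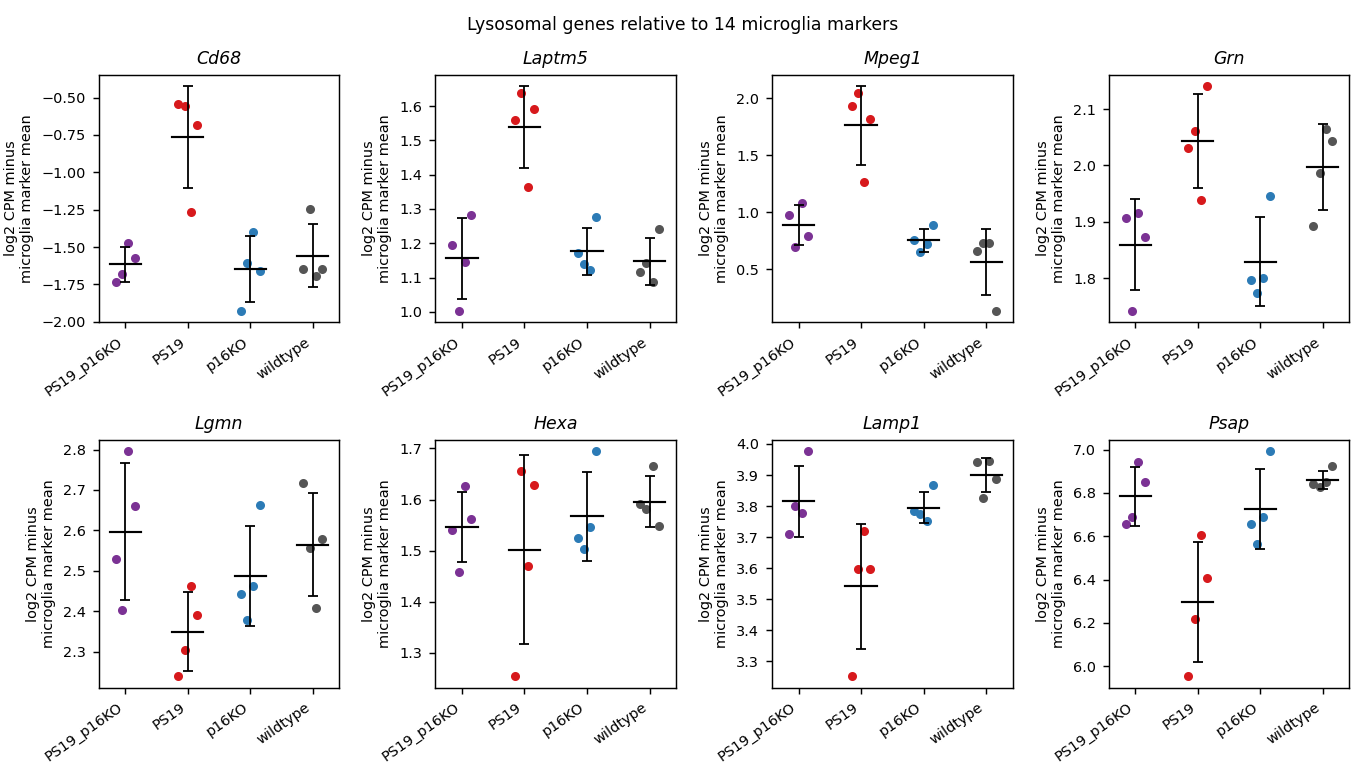
Log2 CPM of 8 lysosomal genes minus the mean log2 CPM of 14 microglia markers (vertical axes, each with its own range), one point per library, with the group mean and ± 1 SD (n = 4). Mpeg1 and Laptm5 stay above wildtype in all PS19 libraries, Grn and Hexa overlap, and Lamp1 and Psap lie below wildtype in PS19.

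On the same scale, Cd68 lay at -1.73 to -1.47 in PS19_p16KO and -1.27 to -0.55 in PS19, Mpeg1 at 0.69 to 1.08 and 1.26 to 2.05, and Laptm5 at 1.002 to 1.28 and 1.36 to 1.64. Grn lay at 1.74 to 1.92 in PS19_p16KO and 1.94 to 2.14 in PS19. All 4 were lower in every PS19_p16KO library than in every PS19 library, where 0.501% of all genes were. Neu1, Psap, Smpd1, Ppt1, Tfeb and Mcoln1 were higher in every PS19_p16KO library, where 31.1% of all genes were, and the other 23 members, Lgmn and Hexa among them, overlapped. The scale is a description, since the marker list holds genes that themselves differ in response, from -0.01 to 1.59 in log2 fold change in PS19 against wildtype.

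Other genes of the lysosome were examined by list. Among 26 further hydrolases and activators, Pld4 and Dnase2a were higher in PS19 than in wildtype, and the list's median log2 fold change was 0.16. Pld4, an exonuclease of phagocytes, had log2 1.05 ± 0.16, edgeR adjusted p = 0.00162, and Dnase2a, the acid nuclease, log2 0.64 ± 0.16, edgeR adjusted p = 0.0484. Of 20 transporters and channels, 18 were tested and 3 were higher in PS19. These were Slc15a3, a peptide transporter of macrophages (log2 1.51 ± 0.23, edgeR adjusted p = 0.00117), Slc11a1, the phagosomal metal transporter NRAMP1 (log2 1.72 ± 0.28, edgeR adjusted p = 0.00227), and Slc29a3, a nucleoside transporter (log2 0.45 ± 0.10, edgeR adjusted p = 0.0152). In PS19_p16KO against PS19, 0 of the 26 hydrolases were called by edgeR (6 at an unadjusted p under 0.05, 1 by DESeq2, 0 by limma-voom), and Slc11a1 (log2 -1.76 ± 0.28, edgeR adjusted p = 0.00693) and Slc15a3 (log2 -1.31 ± 0.23, edgeR adjusted p = 0.00767) fell. The median of the transporters was 0.03 in PS19 against wildtype.

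Of 20 subunits of the vacuolar proton pump 19 were tested, with 0 of them called by edgeR (0 at an unadjusted p under 0.05, 0 by DESeq2, 0 by limma-voom) in PS19 against wildtype and 0 of them called by edgeR (1 at an unadjusted p under 0.05, 0 by DESeq2, 0 by limma-voom) in PS19_p16KO against PS19. They had log2 values of -0.09 to 0.31 in PS19 against wildtype and a median of -0.01. Of 12 sorting genes, which include the mannose 6-phosphate receptors, there were 0 genes called by edgeR (2 at an unadjusted p under 0.05, 1 by DESeq2, 0 by limma-voom) in PS19 against wildtype, with values of -0.07 to 0.45. Of 15 genes of the TFEB family and of mTORC1 signalling at the lysosome 14 were tested, and Flcn, which controls TFEB, was higher in PS19 (log2 0.19 ± 0.05, edgeR adjusted p = 0.0489). That list's median was 0.04.

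Libraries rich in choroid plexus RNA were high in several ubiquitous members. PS19_p16KO library 3, with the highest choroid plexus sum, had 129 CPM of Lamp2, against 73.8 to 79.8 CPM in the other PS19_p16KO libraries. In the same library Cd63 stood at 136 CPM, against 65.9 to 82.98 CPM. Naglu stood at 16.2 CPM, against 9.79 to 10.6 CPM. In p16KO library 4 Lipa had 30.9 CPM, against 18.96 to 20.6 CPM in the other p16KO libraries, and Tpp1 had 70.5 CPM, against 56.8 to 58.8 CPM. Without the 3 choroid-rich libraries 14 members were called higher in PS19 than in wildtype, the 11 above with Lamp2, Npc1 and Npc2. Over all 16444 genes of that fit 310 were called higher there, and 58 lower in PS19_p16KO than in PS19. Cd68 and Man2b1 were then called in PS19_p16KO against PS19, while Laptm5 had log2 -0.91 (edgeR adjusted p = 0.0807), Mpeg1 -1.52 (edgeR adjusted p = 0.0949), Grn -0.72 (edgeR adjusted p = 0.0934) and Hexa -0.49 (edgeR adjusted p = 0.0846). The part of choroid plexus RNA in these differences was not tested further.

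**Figure D5:**
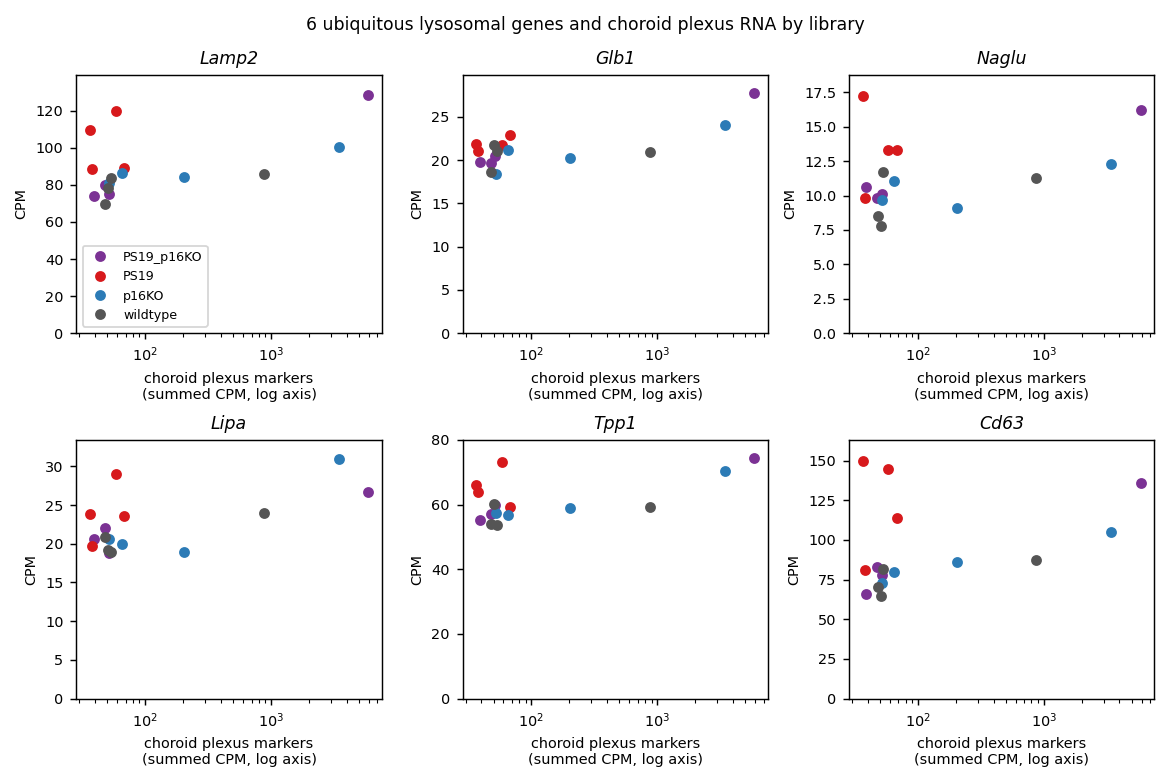
CPM of 6 ubiquitous lysosomal genes (vertical axes, from 0), picked after their values were seen, against the summed CPM of 8 choroid plexus markers (horizontal log axes), one point per library, coloured by group. The PS19_p16KO library at 5878 CPM and the p16KO library at 3442 CPM are high for their groups, while the PS19 libraries with high values have sums of at most 67.9 CPM.

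Divided by the summed length of their annotated exons, the members spanned a wide range of levels in wildtype. Tfeb was lowest at 1.33 CPM per kilobase, followed by Manba at 1.61, Lipa at 3.06 and Gusb at 3.08. Psap was highest at 618, followed by Laptm4a at 139, Gaa at 101 and Lamp1 at 81.5, and the median was 10.6. The myeloid-enriched Cd68 and Mpeg1 were among the lower members in wildtype, at 3.99 and 5.06 CPM per kilobase, and reached 11.9 and 19.8 in PS19. Lamp1 and Lamp2, relatives of Cd68, stood at 103 and 10.7 in PS19, so on this measure Cd68 was about level with Lamp2 there and well under Lamp1. The length takes in every annotated exon, 9552 bases for Lamp2 and 1257 for Cd68, whether or not a transcript holds it. Before the division Lamp2 and Cd68 averaged 102 and 14.9 CPM in PS19. Exons of several members overlap those of another gene on the opposite strand, most of all, by share of exon length, in Arsb, Arsa and Hexa. Whether the counting used strand is not stated in the labels, and the partners of Hexa and Arsa averaged 1.19 and 2.29 CPM and those of Arsb had 0 counts. Partners with higher levels were Fam171a2 for Grn (116 CPM, 68 shared exon bases), Cap1 for Ppt1 (338 CPM, 129 bases) and Rmc1 for Npc1 (26.6 CPM, 511 bases). Whether reads in these shared bases were assigned to a gene or dropped is not stated, so the members' counts are uncertain there. Glb1 shares 165 exon bases with Tmppe on its own strand, so its level is uncertain by reads that could belong to either gene.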

How the data were processed

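Hippocampal RNA of 8-month-old mice was sequenced in bulk. The authors deposited raw counts per Ensembl gene, with 49671 gene rows and 92 spike-in rows, which held 0.574% to 1.06% of a library and were left out. The submitters' processing notes name GRCm38 and STAR 2.5.2b, featureCounts, DESeq2, Subread 1.5.2 and Trimmomatic 0.36, without their roles. Annotation release and strand are not stated. Columns were tied to samples by the library name in the labels. Symbols, positions and exon lengths came from GENCODE M21 on GRCm38, which names 49412 of the rows.

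Counts were tested with edgeR 4.0.16 in R 4.3.3 (limma 3.58.1, DESeq2 1.42.0), with filterByExpr at a minimum count of 10, TMM scaling and 1 robust quasi-likelihood fit of all 16 libraries with a mean per group. P-values were adjusted by Benjamini-Hochberg over 16372 genes, with a threshold of 0.05, and errors of fold changes are the log2 fold change divided by the root of F. The procedure was tested on simulated counts. Alternatives were other scalings, filters, tools, covariates and libraries left out, 25 settings in all. Members, classes, lists and tests were chosen with earlier results of these data known, so no p-value is adjusted over a list alone and no list is tested. Values per library are given for the 5 myeloid-enriched members, each member called in any comparison and both regulators. Other lysosomal lists are named by up to 3 called genes with the smallest adjusted p, and 1 gene of these lists is not reported here. Library values of other members, and the ubiquitous members named with a value, were picked after their values were seen. Libraries of a group were distinct: chi-square divided by its degrees of freedom, over genes, was 4.56 to 24.3.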

Additional observations from a re-analysis of the deposited data

Results flagged for a closer look

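Within a group of 4, a library was marked when its gap to the nearest other library, as a share of the group's range, passed Dixon's critical value. Over 132 groups (33 members in 4 genotypes) 13 were marked, where chance marks about 1 in 20 groups. In PS19_p16KO library 3 Lamp2 stood at 129 CPM, Glb1 stood at 27.7 CPM, Man2b1 stood at 69.3 CPM and Naglu stood at 16.2 CPM. In wildtype library 3 Laptm5 stood at 30.5 CPM. In wildtype library 4 Mpeg1 stood at 15.2 CPM. In p16KO library 2 Neu1 stood at 59.4 CPM and Mcoln1 stood at 53.6 CPM. In p16KO library 4 Lipa stood at 30.9 CPM, Man2b1 stood at 51.3 CPM and Tpp1 stood at 70.5 CPM. In PS19_p16KO library 2 Galns stood at 11.1 CPM. In PS19_p16KO library 4 Manba stood at 8.71 CPM. PS19_p16KO library 3 and p16KO library 4 are the libraries with choroid plexus sums of 5878 and 3442 CPM, and their part in these values was not tested. Of the marked genes Laptm5, Mpeg1 and Man2b1 were called in PS19 against wildtype. The call of Laptm5, Mpeg1 and Man2b1 there was kept when any 1 library was left out.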

How the results depend on the processing

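The count of 11 members called in PS19 against wildtype lay between 9 and 14 under RLE scaling, DESeq2, limma-voom, no filter, CPM above 1 in 4 libraries, the library-name digit as a batch term and without the choroid-rich libraries, was 0 when only the compared groups were fitted, and was 7 to 13 with 1 library left out. The count of 5 in PS19_p16KO against PS19 was 3 with no filter, 0 when only the compared groups were fitted, 2 without the choroid-rich libraries and 1 to 9 with 1 library left out. It was 3 without PS19 library 1 or PS19_p16KO library 1 and 2 without PS19_p16KO library 2 or 4. Calls over all genes moved in the same fits. In PS19_p16KO against PS19 127 were lower in the main fit, 137 with no filter, 6 with only the compared groups and 58 without the choroid-rich libraries. In PS19 against wildtype 255 were higher in the main fit, 68 with only the compared groups and 120 to 423 with 1 library left out. The interaction count of 0 was 5 by DESeq2, 1 with the library-name digit as a batch term and 0 to 7 with 1 library left out. Counts in the other comparisons were 0 under every alternative run. Apart from the narrowed class the median fold changes moved by less than the spread between libraries. With the myeloid-enriched class narrowed to Cd68, Laptm5 and Mpeg1, its median was 1.56 in PS19 against wildtype, -1.43 in PS19_p16KO against PS19 and -1.52 in the interaction. Mcoln1 in PS19 against wildtype turned to -0.0023 without wildtype library 4 and -0.017 without PS19 library 3, and its values with 1 library left out ended at 0.024. Apart from fewer libraries or genes in a fit, the cause was not tested.

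Replicate numbers in the labels did not pair the samples: same-numbered libraries had a median correlation of deviations of -0.03 (range -0.39 to 0.22 over 24 pairs), and 4 of 16 libraries correlated best with their own number. With the number as a replicate block, 10 members were called in PS19 against wildtype, with Gm2a lost, 5 in PS19_p16KO against PS19, with Hexa lost and Scarb2 gained, and 0 in the other comparisons and the interaction. With a lowest count of 84 for any member, the 4 libraries of a group set the precision.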

Other observations

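Markers of other cell types give the tissue context of these genes. The 8 oligodendrocyte markers summed to 3286 to 4169 CPM in PS19_p16KO, 3208 to 4429 in PS19, 3314 to 3803 in p16KO and 2534 to 3724 in wildtype. Endothelial markers summed to 161 to 241 CPM in PS19_p16KO, 155 to 196 in PS19, 189.5 to 232 in p16KO and 175 to 198 in wildtype. All 8 oligodendrocyte markers were positive in p16KO against wildtype, with a median of log2 0.30 and 0 called by edgeR. In PS19 against wildtype all 8 were also positive, at log2 0.21 to 0.55 with a median of 0.34. There 0 of the 8 were called by edgeR (6 at an unadjusted p under 0.05, 2 by DESeq2, 1 by limma-voom). In the same comparison 0 of 8 of the endothelial list were called by edgeR (0 at an unadjusted p under 0.05, 0 by DESeq2, 0 by limma-voom). The 8 neuron markers had 7 negative values in that comparison, with a median of -0.06 and 0 genes called by edgeR (0 at an unadjusted p under 0.05, 0 by DESeq2, 0 by limma-voom). Red blood cell markers, the globins and Alas2, reached 17.2 CPM in PS19_p16KO library 4 and 18.2 CPM in wildtype library 4, and at most 7.91 CPM in the other libraries. Lysosomal genes were not compared with these lists by a test.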
